A study of Mus musculus with 6 samples.

Results

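A set of 48 cell cycle genes that mark the dividing cells of the intestinal crypt was followed in the small intestinal mucosa of alk-SMase KO and WT mice. The genes were taken by symbol, for their known role and with earlier results of these data known, from a list that runs from the licensing of replication origins to the separation of chromosomes. Of the 48 genes, 47 were listed among the 22700 rows of the deposited table and Kif11, a spindle motor, was not listed. Identifiers in that table stood beside the values of other genes, so that each had to be returned to its own row by rank. This placed 12402 genes and 35 of the 48 (34 after a filter on low values), while Cdc6, Ccnb1, Bub1, Mad2l1, Cenpe, Cenpf, Kif20a, Kif23, Nusap1, Prc1, Smc2 and Foxm1 were not placed and have no value here. A gene could be placed only at 0.954 FPKM or more in W83S, a WT library, so the 35 genes are those with at least that level in W83S and are not a sample of all 48.

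Total RNA of the middle small intestine was sequenced from 6 C57BL/6 mice, each giving 1 library: the KO mice gave K79S, K82S and K86S, and the WT mice W83S, W89S and W90S (n = 3 each). In the KO mice exon 2 of Enpp7, the gene of alkaline sphingomyelinase (alk-SMase), was removed with the Cre-loxP system, which breaks the reading frame. Levels are given as FPKM, fragment numbers scaled for gene length and for the mapped reads of the library. The age and sex of the mice, and which KO mouse was paired with which WT mouse, are not given in the sources used here.

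The epithelium of the small intestine is renewed from crypts, where stem cells and their dividing daughters pass through the cell cycle before they move onto the villus and stop dividing. Genes of DNA replication are switched on late in G1 and in S phase by E2F factors, and genes of mitosis in G2 by B-MYB and FOXM1 together with the MuvB core. Differentiated enterocytes and Paneth cells do not cycle, so that in whole mucosa these transcripts come from the crypt and from dividing cells of the lamina propria and lymphoid follicles. In RNA of whole mucosa, fewer dividing cells and less of a transcript per dividing cell cannot be told apart.

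Some libraries stood apart. The number of reads behind each value is not recorded in FPKM. By the paper's totals of mapped reads, K86S had the fewest, K79S the next fewest, and K82S the most among KO libraries. W83S held 8.49% of its summed FPKM in 8 gastric genes and 2.12% in 4 pancreatic acinar genes, whereas the other 5 libraries held at most 0.00126% and 0.0177%. K82S had 129 FPKM of Enpp7 against 405.6 to 670 in the other 5 libraries, and its sum of 17 villus enterocyte genes was the lowest of the 6. The Enpp7 row covers the whole gene and does not show whether exon 2 is present, so it does not check the genotype. Results that rest on K82S or W83S are therefore given with and without them.

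All 35 genes had their highest KO value in K82S, and the other KO libraries, K79S and K86S, lay below every WT library for 33 of the 35. The 35 genes summed to 83.4 FPKM in K79S, 180.9 in K82S and 82.8 in K86S, and among WT mice to 141.8 in W83S, 199.6 in W89S and 216.9 in W90S. K79S and K86S thus lay below all WT libraries, K82S lay between W83S and W89S, and the groups overlapped. The mean sum was 116 ± 56.5 FPKM over the KO libraries and 186 ± 39.3 FPKM over the WT libraries (SD, n = 3 each). Among the 34 genes tested, K82S was the highest KO library in 34 (100%), compared with 52.1% of the 12098 placed genes tested. K79S and K86S were both below the WT range for 32 of 34 (94.1%, compared with 33.3% of placed genes), the exceptions being Cdt1 and Smc4. Placement required a minimum level in W83S, a WT library, which favours KO below WT in genes near that minimum. The placed genes carry the same condition but were not matched to the 34 for level. K82S itself lay within the WT range for 29 of the 35, below it for Mcm6, Rrm2, Tyms and Plk1 and above it for Pcna and Ccne1. W90S held the highest value of 27 of the 34 genes, W89S of 6 and K82S of 1, while K86S held the lowest of 19 and K79S of 15. Among the WT libraries W83S was the lowest for 32 of the 35.

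The ratio of the WT mean to the mean of K79S and K86S had a median of 2.68 over the 34 genes, from 1.26 for Cdt1 to 21.0 for Gins2, and of 1.10 over placed genes. The ratio of K82S to the same mean had a median of 2.56, from 1.32 for Mcm6 to 17.6 for Gins2, and of 1.13 over placed genes. These ratios describe libraries singled out after their values were seen and carry no test. The genes differed in level as well, with means over the 6 libraries from 0.790 FPKM for Ccne1 to 23.3 FPKM for Pcna and a median of 3.56 FPKM.

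**Figure D1:**
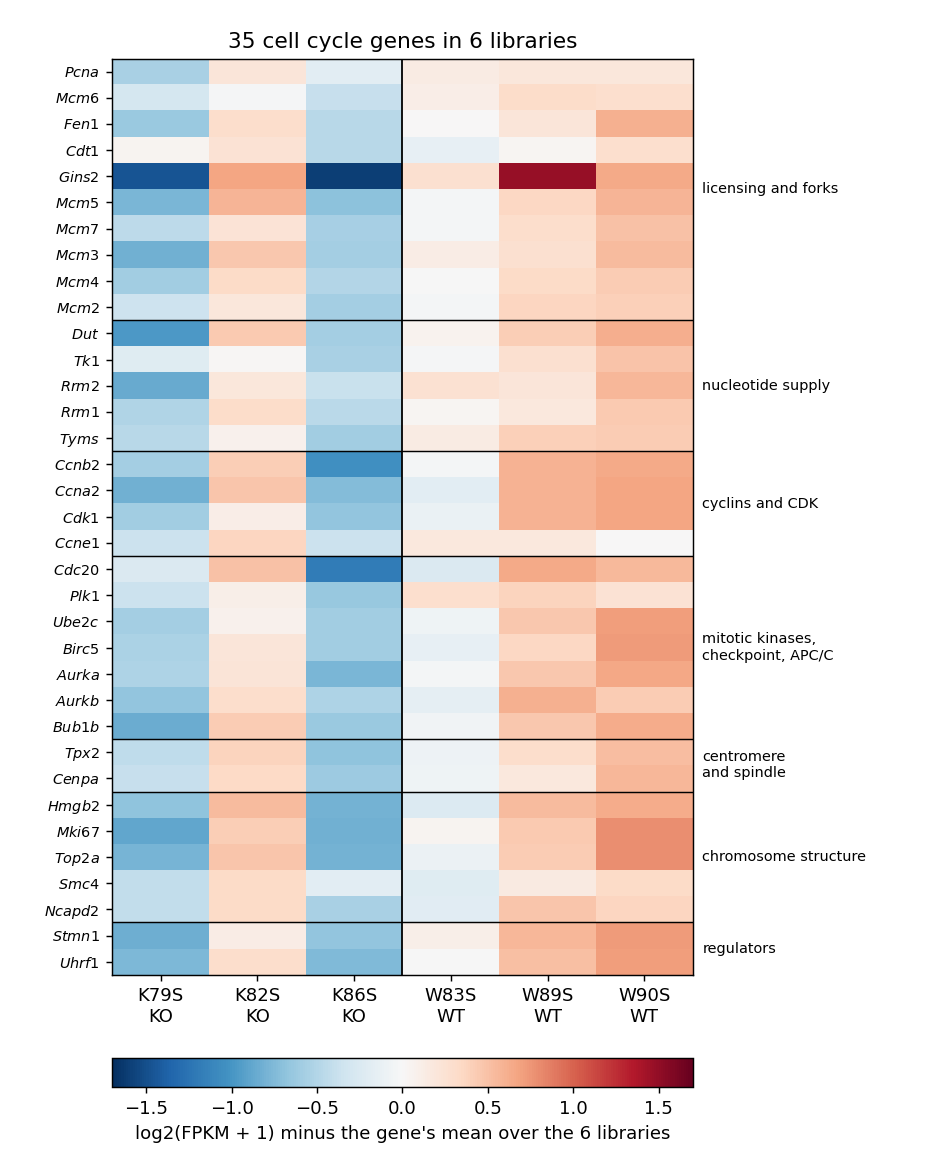
Heat map of the 35 placed cell cycle genes (rows, grouped by role) in the 6 libraries (columns), coloured by log2(FPKM + 1) minus the gene's own mean over the 6 libraries. K79S and K86S are blue in nearly every row, K82S is on the red side in nearly every row, and W83S is the palest WT library, being the lowest of the 3 for 32 of the 35 genes.

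The promoters of the genes were examined for motifs known from cell cycle control. RefSeq windows of the GRCm38.p6 build (mm10), from 250 bases before to 50 after the start, were at hand for 39 of the 48 genes. For 8 of them the 5′ end in GENCODE lay more than 100 bases from that start. These were Mcm7 (539 bases), Cdc6 (350 bases), Dut (325 bases), Fen1, Mad2l1, Pcna, Ncapd2 and Cenpa. Their windows are counted in the shares below, although they may miss the promoter in use. The motifs sought were these, each on both strands: the cell cycle genes homology region (CHR) as TTTGAA, the CCAAT box bound by NF-Y as CCAAT, and the E2F site as TTTCCCGC, TTTGGCGC, TTTGCCGC or TTTCGCGC. A CHR was found in 48.7% of the 39 windows, compared with 11.5% of 7448 placed and tested genes and 16.9% of all 20592 windows. A CCAAT box was found in 74.4%, compared with 39.0% and 38.2%, and an E2F site in 20.5%, compared with 4.08% and 2.64%. The roles differed. E2F sites lay in 6 of 9 windows of licensing and fork genes (Mcm3, Mcm5, Mcm6, Mcm7, Cdt1 and Cdc6) and in 0 of 5 of nucleotide supply genes, together 42.9% of 14, against 2 of the 25 windows of the other roles. CHR matches lay in 14.3% of those 14 windows and in 68.0% of the other 25, among them 5 of 5 chromosome structure genes, which also all held a CCAAT box. A match is a string of letters in this window and does not show that a factor binds.

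The windows below are shown because they carry these motifs in genes with the highest or second highest level of their role. Each is 150 bases long, 5′ to 3′ on the gene's strand, and ends just before the more upstream of the RefSeq and GENCODE starts. Capitals mark the motifs on either strand, so that ATTGG is a CCAAT box read on the other strand. For Mcm6, a helicase subunit, the first run of capitals is a pair of overlapping E2F matches on opposite strands, followed by a CCAAT box, a single E2F match and a CCAAT box. Cdc20 shows a CHR downstream of a CCAAT box, Hmgb2 a CHR between CCAAT boxes, Mki67 a pair of CHR matches after a CCAAT box, and Ccnb2 3 CCAAT boxes, its 2 CHR matches lying outside the stretch shown.
Mcm6, chr1:128359706-128359855, minus strand: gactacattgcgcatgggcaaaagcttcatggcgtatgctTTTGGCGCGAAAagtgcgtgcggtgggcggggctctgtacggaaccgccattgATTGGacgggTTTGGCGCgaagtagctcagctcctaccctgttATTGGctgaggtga
Ccnb2, chr9:70421555-70421704, minus strand: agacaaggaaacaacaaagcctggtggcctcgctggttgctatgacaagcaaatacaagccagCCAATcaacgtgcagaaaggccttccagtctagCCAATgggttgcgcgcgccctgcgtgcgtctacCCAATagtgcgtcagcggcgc
Cdc20, chr4:118437353-118437502, minus strand: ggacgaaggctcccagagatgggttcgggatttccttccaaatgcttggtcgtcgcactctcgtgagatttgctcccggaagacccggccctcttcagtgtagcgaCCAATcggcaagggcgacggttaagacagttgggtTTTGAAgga
Hmgb2, chr8:57511693-57511842, plus strand: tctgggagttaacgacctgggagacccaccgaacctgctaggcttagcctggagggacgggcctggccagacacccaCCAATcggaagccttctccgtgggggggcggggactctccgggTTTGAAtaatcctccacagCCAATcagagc
Mki67, chr7:135716380-135716529, minus strand: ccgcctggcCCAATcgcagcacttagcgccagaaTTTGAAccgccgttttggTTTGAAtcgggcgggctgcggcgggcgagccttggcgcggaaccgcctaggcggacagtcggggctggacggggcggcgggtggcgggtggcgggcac
Pcna, with the highest level of its role, has a 5′ end in GENCODE 134 bases upstream of the RefSeq start and is not shown.

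**Figure D2:**
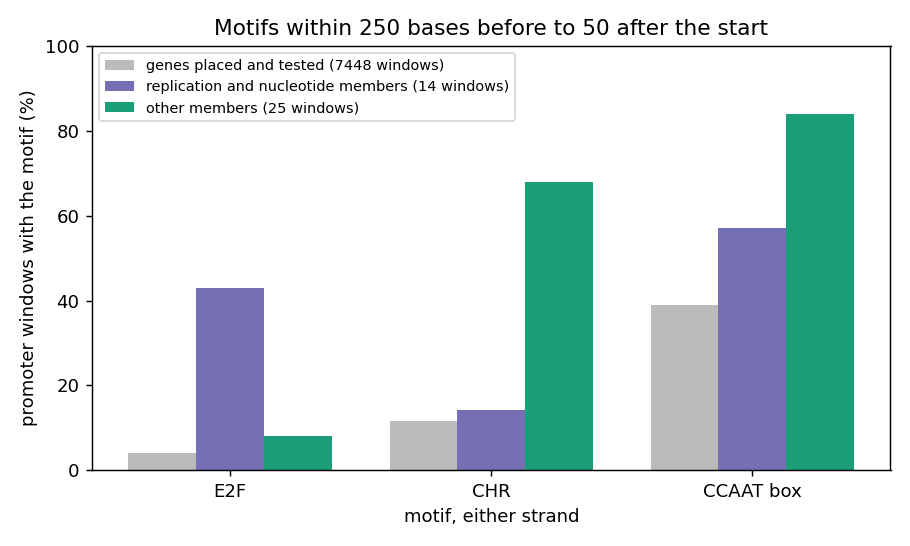
Bars give the share of promoter windows (%, axis from 0) that hold each motif on either strand, for 7448 placed and tested genes, the 14 windows of replication and nucleotide genes and the 25 of the other roles. E2F sites are most frequent in the first set of cell cycle genes (42.9%) and CHR matches in the second (68.0%).

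The licensing and fork genes place the MCM helicase on origins, start it and copy the DNA behind it. Pcna, the sliding clamp of the polymerases, was at 15.3, 26.6 and 20.2 FPKM in the KO libraries and at 25.3, 26.2 and 26.2 FPKM in the WT libraries, each in the order in which they are named above. Mcm6 was at 4.43, 5.63 and 4.12 FPKM in KO and at 6.24, 7.29 and 7.16 FPKM in WT. Every KO value of Mcm6 was lower than every WT value, with means of 4.73 ± 0.797 and 6.90 ± 0.576 FPKM (SD, n = 3), whereas for Pcna K82S exceeded every WT library. Gins2, a subunit of the GINS complex that joins the active helicase, was at 0.335, 4.91 and 0.225 FPKM in KO and at 3.49, 9.35 and 4.77 FPKM in WT. K79S and K86S were more than an order of magnitude below K82S for Gins2, the widest spread among the genes. The other MCM subunits had lower levels with K82S likewise the highest KO library. Mcm5 was at 1.59, 5.63 and 1.73 FPKM in KO and at 3.35, 4.67 and 5.65 FPKM in WT. Mcm3 was at 1.15, 4.19 and 1.53 FPKM in KO and at 3.13, 3.56 and 4.50 FPKM in WT. Mcm4 was at 1.07, 2.91 and 1.22 FPKM in KO and at 2.12, 2.93 and 3.20 FPKM in WT. In Mcm2, Mcm7 and Fen1, the flap endonuclease of lagging strand synthesis, K82S likewise lay within the WT range and K79S and K86S below it. Cdt1, which loads the helicase, stood out, since K79S (4.21 FPKM) was above W83S (3.60 FPKM) and W89S (4.16 FPKM), and its ratio of WT to K79S and K86S was the smallest.

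The enzymes of nucleotide supply were low, with none above the 5.52 FPKM of Dut in W90S. Dut, which removes dUTP, was at 1.16, 4.75 and 1.84 FPKM in KO and at 3.42, 4.68 and 5.52 FPKM in WT. Tk1, thymidine kinase, was at 1.74, 2.20 and 1.15 FPKM in KO and at 2.12, 2.82 and 3.44 FPKM in WT. For both genes K82S lay inside the WT range. The groups did not overlap for Rrm2, the S phase subunit of ribonucleotide reductase, at 0.651, 2.42 and 1.31 FPKM in KO and 2.58, 2.43 and 3.41 FPKM in WT. Nor did they for Tyms, thymidylate synthase, at 0.435, 1.09 and 0.324 FPKM in KO and 1.18, 1.64 and 1.69 FPKM in WT. For Rrm2 the gap between K82S (2.423 FPKM) and W89S (2.433 FPKM) was far smaller than the spread within either group. Rrm1, the large subunit, had K79S and K86S at 0.591 and 0.652 FPKM and all other libraries at 1.32 FPKM or more.

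Among cyclins and their kinase, Ccnb2, a mitotic B-type cyclin, was at 2.99, 6.94 and 1.87 FPKM in KO and at 4.80, 7.91 and 8.29 FPKM in WT. Ccna2, the cyclin of S phase and G2, was at 1.42, 4.89 and 1.56 FPKM in KO and at 2.76, 5.44 and 5.81 FPKM in WT. K82S was nearer to W89S and W90S than W83S was for both cyclins. Cdk1, the kinase that drives mitosis, was at 0.818, 1.97 and 0.715 FPKM in KO and at 1.53, 3.10 and 3.34 FPKM in WT. Ccne1, the cyclin of S phase entry, was at 0.368, 1.26 and 0.370 FPKM in KO and at 0.989, 0.987 and 0.764 FPKM in WT, and did not pass the filter on low values.

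The kinases, checkpoint proteins and APC/C factors of mitosis showed the same order. Cdc20, an activator of the APC/C ubiquitin ligase, was at 5.24, 9.45 and 2.24 FPKM in KO and at 5.27, 10.6 and 9.87 FPKM in WT. Plk1, polo-like kinase, was at 4.68, 6.87 and 3.69 FPKM in KO and at 7.91, 8.49 and 7.70 FPKM in WT. The groups did not overlap for Plk1 (5.08 ± 1.63 and 8.03 ± 0.411 FPKM, SD, n = 3), while for Cdc20 K79S and W83S were nearly equal. Ube2c, the ubiquitin-conjugating enzyme of the APC/C, was at 3.34, 5.86 and 3.31 FPKM in KO and at 5.21, 7.94 and 9.63 FPKM in WT. Aurka, Aurkb and Birc5 (survivin, a partner of Aurora B) had K79S and K86S below all WT libraries and K82S within the WT range. Bub1b, which encodes the checkpoint protein BubR1, was at 0.345 and 0.559 FPKM in K79S and K86S and at 1.31 FPKM or more in the other libraries. Of the centromere and spindle genes only Tpx2 and Cenpa were placed. Tpx2, an activator of Aurora A on the spindle, was at 0.905, 2.35 and 0.601 FPKM in KO and at 1.42, 2.16 and 2.69 FPKM in WT. Cenpa, the histone H3 variant of centromeres, was at 0.814, 1.99 and 0.542 FPKM in KO and at 1.25, 1.69 and 2.51 FPKM in WT. K82S was the second highest of the 6 libraries for both.

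Hmgb2, a chromatin protein abundant in dividing cells, was at 4.75, 12.4 and 4.30 FPKM in KO and at 6.89, 12.4 and 13.3 FPKM in WT. Mki67, which encodes the proliferation antigen Ki-67, was at 1.53, 5.24 and 1.66 FPKM in KO and at 3.82, 5.40 and 7.12 FPKM in WT. K79S and K86S thus held less than every WT library for both, while K82S was close to W89S. Top2a, topoisomerase II alpha, and Ncapd2, a condensin I subunit, had the same order of groups, at 1.67, 5.45 and 1.65 FPKM in KO and 3.33, 5.24 and 7.04 FPKM in WT for Top2a. Smc4, a core condensin subunit, was the other exception, with K86S (2.98 FPKM) above W83S (2.90 FPKM). Stmn1, stathmin, which destabilizes microtubules, was at 6.13, 12.9 and 6.99 FPKM in KO and at 12.6, 17.7 and 19.97 FPKM in WT. Uhrf1, which maintains DNA methylation through replication, was at 1.10, 3.38 and 1.12 FPKM in KO and at 2.56, 4.08 and 4.86 FPKM in WT. For Stmn1 K82S passed only W83S, by less than the spread within either group.

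**Figure D3:**
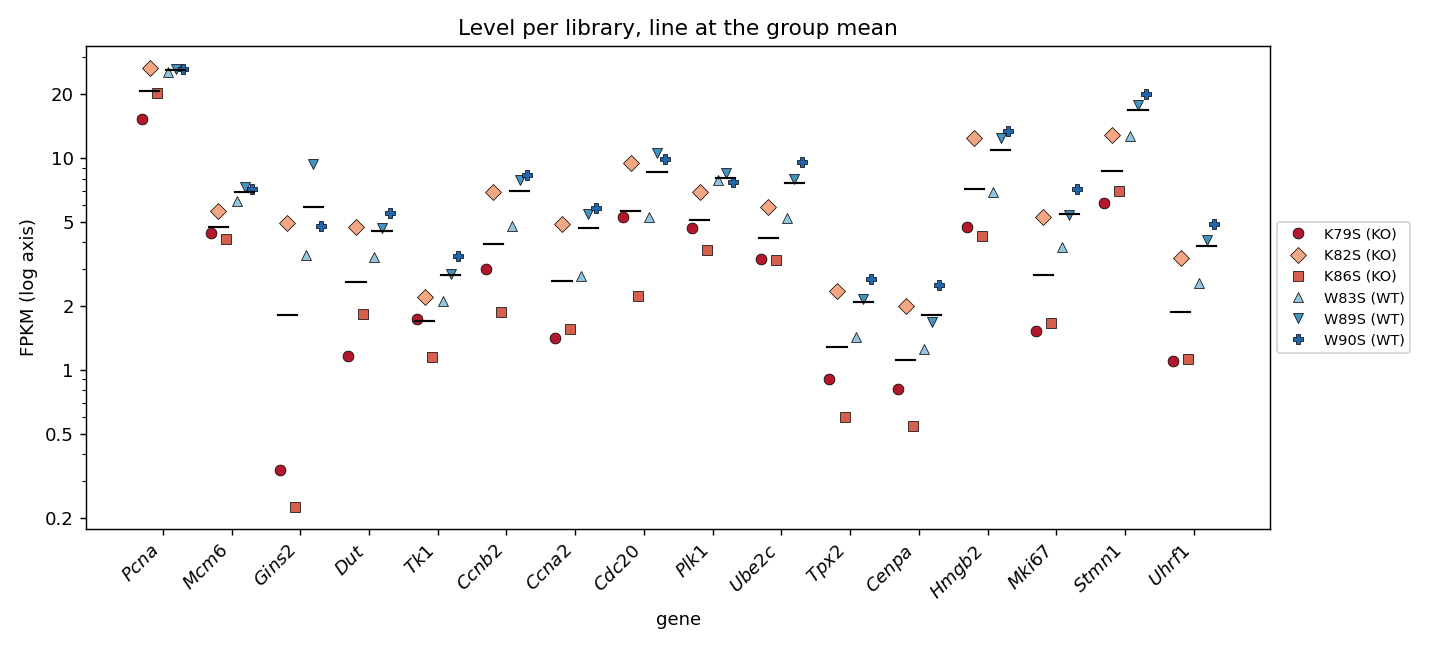
FPKM (log axis) of 16 cell cycle genes in each library, KO libraries on the left of each gene and WT libraries on the right, with a line at each group mean. The values of K79S and K86S lie below all 3 WT values for every gene shown, and K82S lies above K79S and K86S for every gene, and above all WT values for Pcna.

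Whether the genes differed between KO and WT was tested with limma on log2(FPKM + 1) over 13089 rows. With all 6 libraries, 0 of the 34 genes passed an adjusted p of 0.05 with a fold change beyond 1.5, and 1 of all rows did (0.00764%). The adjusted p-values lay between 0.393 and 0.843. All 34 estimates were on the lower side in KO, with a median log2 fold change of -0.62, from -1.60 for Gins2 to -0.12 for Cdt1, while the median over all rows was -0.06 and 59.3% of placed genes were on the lower side. At an unadjusted p under 0.05, 10 of 34 were lower in KO, against 9.64% of all rows. Groups that did not overlap were found for 4 of 34 (11.8%: Mcm6, Rrm2, Tyms and Plk1), which is near the background of 11.3% of all rows and 12.1% of placed genes. Without W83S this count was 21 of 34, against 21.5% of placed genes. An exact two-sided permutation test of 3 against 3 libraries gave p = 0.1 for these 4 genes, the smallest p it allows. When each library was scaled to the same sum, the median of all rows moved up by 0.15 on the log2 scale and the median of the 34 genes was -0.55, with Cdt1 alone turning to the higher side (log2 fold change 0.03).

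The estimates rested on which libraries were used. Without K82S, 12 of 34 genes (35.3%) fell in KO by the same limma test, against 8.88% of all rows and 9.39% of placed genes. They were Mcm3, Mcm4, Mcm5, Gins2, Rrm2, Tyms, Dut, Ccnb2, Plk1, Mki67, Uhrf1 and Stmn1. The largest estimates were those of Gins2 (-2.33 ± 0.36, SE, adjusted p = 0.0319), Mki67 (-1.28 ± 0.23, adjusted p = 0.0355), Stmn1 (-1.21 ± 0.21, adjusted p = 0.0333) and Ccnb2 (-1.21 ± 0.27, adjusted p = 0.0494). These are log2 fold changes with 1 added to each FPKM, so that changes of genes of low level come out too small. Gins2 and Tyms passed the filter on low values in this setting only through WT libraries. K79S and K86S were at 0.335 and 0.225 FPKM for Gins2 and at 0.435 and 0.324 FPKM for Tyms. A gene that enters in this way can hardly come out higher in KO. Mcm6 passed the adjusted p (0.0473) with a change of -0.58 that was within the fold limit. The median over the 34 genes was -0.92, compared with -0.09 over all rows. Of placed genes 0.374% rose in KO by limma in this setting, far fewer than fell. K79S and K86S were below all WT libraries for 32 of 34, while groups did not overlap in this direction for 33.3% of placed genes. Without K82S and W83S together, a pair left out after their values were seen, 23 of 34 (67.6%) passed, against 8.6% of placed genes, and the median was -1.10. Of these, Gins2, Tyms, Cdk1, Bub1b and Tpx2 passed the filter only through WT libraries. Both settings leave out libraries that lie nearer to the other group, so the counts describe the remaining libraries and were not taken as the comparison of KO with WT.

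**Figure D4:**
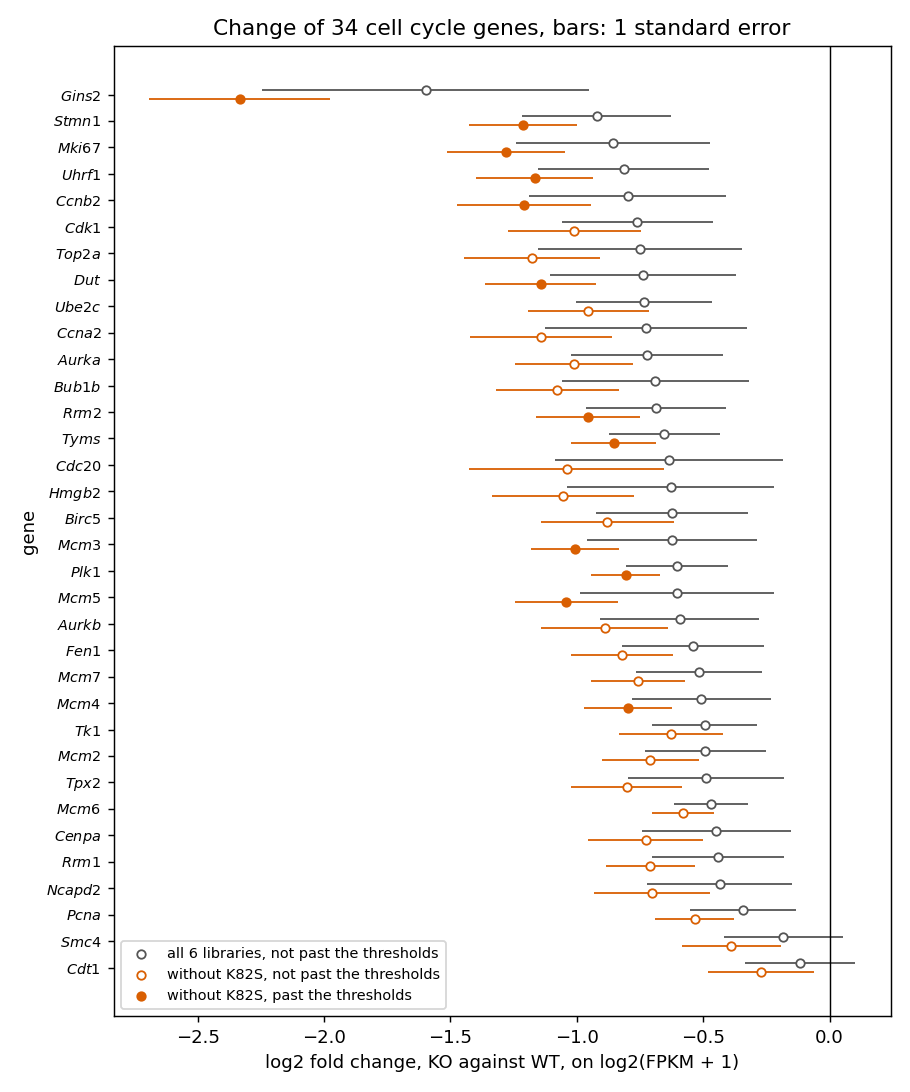
log2 fold change of KO against WT on log2(FPKM + 1) for the 34 genes tested (bars, 1 standard error), with all 6 libraries (grey) and without K82S (orange), filled where a gene passed the thresholds. Every grey point is open and left of 0, and 12 orange points are filled.

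Genes of the same pathway outside the 48 were read from 3 further lists. Of 106 genes 53 were placed and tested, 44 of them on the lower side in KO and 9 on the higher side. By limma 0 of the 53 passed with all 6 libraries, 7 had an unadjusted p under 0.05, and 6 of these (11.3% of the 53) were lower in KO, near the 9.64% of all rows. Without K82S, 6 of the 53 (11.3%) fell, near the 9.39% of placed genes: Cdc45, Rnaseh2a, Spc24, Ccnf, Cenpm and Myc. Over the 12 other mitosis genes the median log2 fold change was -0.65, over the 18 other replication genes -0.32, and over the 23 genes of cycle control -0.09. Cdca3, a trigger of mitotic entry, was at 2.99, 6.71 and 2.46 FPKM in KO and at 4.80, 8.44 and 10.02 FPKM in WT. Cks2, a subunit of cyclin-dependent kinases, was at 4.40, 11.3 and 5.03 FPKM in KO and at 5.27, 9.52 and 11.2 FPKM in WT. Gmnn, the inhibitor of Cdt1, was at 8.47, 10.4 and 9.55 FPKM in KO and at 12.2, 12.1 and 16.1 FPKM in WT, so that its groups did not overlap. Pold2, a subunit of DNA polymerase delta, was at 7.12, 13.5 and 6.70 FPKM in KO and at 8.35, 12.9 and 12.04 FPKM in WT, with K82S above all WT libraries. Rfc4, a subunit of the clamp loader, was listed at 0 in K79S and was at 1.76 and 0.691 FPKM in K82S and K86S and at 0.992, 1.76 and 2.58 FPKM in WT, with K82S inside the WT range.

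For 8 of the 23 genes of cycle control K79S and K86S lay below all WT libraries, as for 33.3% of placed genes, and K82S was the highest KO library for 13. Cdkn1a, the p21 inhibitor, was the most abundant of them, at 193, 190 and 172 FPKM in KO and 134, 224 and 127 FPKM in WT, and its groups overlapped. Fzr1, the APC/C activator of G1, was at 15.7, 16.6 and 12.6 FPKM in KO and at 13.3, 16.0 and 14.3 FPKM in WT. Groups that did not overlap were higher in KO for 3 of the 23, against 5.79% of placed genes. They were Rbl1 and Rbl2, the p107 and p130 pocket proteins, and Lin54, a DREAM subunit. Those lower in KO were 2 of the 23, Myc and Cdk4, against 12.1% of placed genes. None of the 5 passed the limma test (adjusted p = 0.393 to 0.510). Myc, a transcription factor active in crypts, was at 2.03, 3.59 and 1.38 FPKM in KO and at 5.26, 4.54 and 3.82 FPKM in WT. In contrast to the 35 genes above, W83S held the highest value of Myc.

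Markers of crypt base and Paneth cells moved in part with the placed cell cycle genes, whereas those of villus enterocytes did not. The sum of 11 crypt base genes was 28.6, 55.7 and 37.1 FPKM in KO and 69.3, 93.0 and 102.7 FPKM in WT, and its groups did not overlap. Among the 10 of them tested, groups did not overlap for 3, Olfm4, Smoc2 and Rgmb, against 12.1% of placed genes. Olfm4, a stem cell marker and the most abundant of them, was at 3.98, 20.1 and 12.8 FPKM in KO and at 24.8, 45.6 and 61.3 FPKM in WT. The sum of 11 Paneth cell genes was 1519, 8073 and 2094 FPKM in KO and 4315, 11930 and 9589 FPKM in WT. K79S and K86S were below all WT libraries for 11 of 11, compared with 33.3% of placed genes. K82S was thus the highest KO library for both lists, and within the WT range for the Paneth list alone. With all 6 libraries 0 of the 10 crypt base genes and 0 of the 11 Paneth genes passed the limma test. Groups did not overlap for 0 of the 11 Paneth genes. The sum of 17 villus enterocyte genes ran the other way among the KO libraries, at 43420, 28880 and 47180 FPKM, against 38730, 38250 and 42290 FPKM in WT. The part of crypt and villus proportions in the levels of the cell cycle genes was not tested.

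Dividing lymphocytes also carry cell cycle transcripts. Cd79a and Cd79b, of the B cell receptor and the only 2 of 10 B cell genes placed, summed to 4.59, 61.3 and 6.53 FPKM in KO and to 5.86, 23.2 and 42.7 FPKM in WT. K82S held the highest sum and K79S, K86S and W83S the lowest. The sum of 4 germinal centre genes, the placed ones of a list of 9, was 10.2, 16.4 and 14.1 FPKM in KO and 17.3, 9.22 and 16.7 FPKM in WT, and its groups overlapped. The sum of 8 T cell genes was 162.8, 233.8 and 161.0 FPKM in KO and 119.1, 76.8 and 101.0 FPKM in WT, with every KO library above every WT library. Whether lymphoid tissue contributed to the level of the cell cycle genes in K82S, W89S and W90S was not tested.

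**Figure D5:**
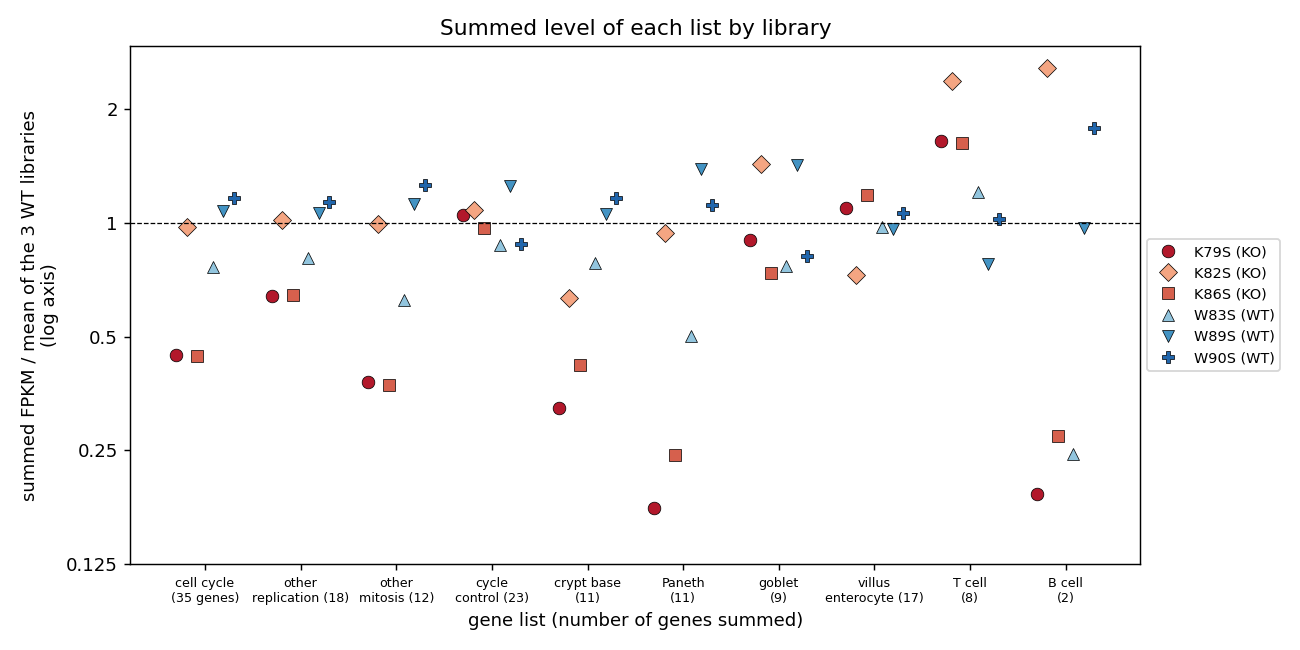
Summed FPKM of each gene list in each library, divided by the mean of the 3 WT libraries (log axis, dashed line at 1). In the cell cycle, other replication, other mitosis, crypt base and Paneth lists K79S and K86S lie below all WT libraries, whereas in the villus enterocyte list K82S is the lowest library.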

How the data were processed

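RNA of 3 KO and 3 WT mice was sequenced as 50 bp single-end reads. The authors removed adapters with trim-galore, aligned reads to mm10 by HISAT2, quantified genes with StringTie and deposited FPKM values, 1 per gene and library. Tool versions, annotation and strand handling are not given in the sources used here. The table held 0 columns of values that could not be mapped to a sample. FPKM records no counts, so no counting interval was given, and precision rests on the spread between 3 mice per group.

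Identifiers stood beside other genes' values. Identifiers were ranked by the K79S value beside them and rows by W83S, and each identifier was moved to the row of its rank plus a small offset that varied along the ranking. As a check, values with at most 6 decimals, which mark genes of 1 transcript in GENCODE M21, were found in 99.7% of 3649 such genes after the move (33.9% before) and in 5.80% of 8748 genes with several transcripts (34.3% before). Of the 35 cell cycle genes, 32 had the decimals that their number of transcripts calls for. Mcm4, Plk1 and Mki67 did not, and their placement is less certain. All of these passed the limma test without K82S, and Plk1 was among the genes whose groups did not overlap.

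Rows at 1 FPKM or more in at least 2 libraries were kept. The log2(FPKM + 1) values were fitted in R 4.3.3 by limma 3.58.1 (lmFit, eBayes with trend, no covariate, Benjamini-Hochberg over all rows), after a test on simulated data. A gene passed at an adjusted p under 0.05 and a fold above 1.5 or below its inverse. Values in every library were set out, per role, for the 2 genes with the highest mean FPKM and the one with the largest change, and for some further genes chosen after their values were seen. The members and lists were chosen with earlier results of these data known. Alternatives were other pseudocounts, filters, scalings and weights, and leaving out libraries. Python 3.11.15 with pandas 2.3.3 and matplotlib 3.10.9 was used for summaries.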

Additional observations from a re-analysis of the deposited data

How the results depend on the processing

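Leaving out 1 library at a time, between 0 and 12 of the 34 cell cycle genes passed the limma test, the 12 without K82S and 0 without any other library. The number whose groups did not overlap ran from 4 to 32, with 32 without K82S (33.3% of placed genes), 21 without W83S (21.5% of placed genes) and 4 otherwise. The median log2 fold change of the genes ran from -0.44 to -0.92. Between 0 and 6 of the 53 further pathway genes passed, the 6 again without K82S (9.39% of placed genes fell in that setting). Without K82S and W83S together, a setting added after the data were seen, 23 of the 34 genes and 15 of the 53 passed, 33 had groups that did not overlap, and the median was -1.10. Under the other pseudocounts, filters, scalings, array weights and a fit without the trend the median stayed between -0.87 and -0.53, 0 genes passed and 3 to 6 had groups that did not overlap. Of 271 values of 16 named genes, 254 kept their direction and side of the threshold and 17 passed it in addition, all without K82S. Over all settings 1 further gene changed sign, Cdt1, when libraries were scaled to the same sum and without K86S (log2 fold change 0.09). No paired analysis was possible because the labels do not say which KO and WT mice form a pair. FPKM gives no depth, and the part of the mapped read totals in these levels was not tested. Genes below about 1 FPKM in W83S could not be placed.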

Other observations

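Within the crypt lists the single genes did not move alike. Axin2, a Wnt target counted with the crypt base genes, was at 8.61, 7.12 and 4.11 FPKM in KO and at 4.96, 10.7 and 4.40 FPKM in WT, and its groups overlapped, in contrast to Olfm4. Among Paneth cell genes Defa24, an alpha-defensin with near-identical copies, so that its own level is uncertain, was at 299.7, 2109 and 588 FPKM in KO and at 1236, 3750 and 3196 FPKM in WT. Reg3g, an antimicrobial lectin, was at 729, 2513 and 570.4 FPKM in KO and at 1204, 947 and 1105 FPKM in WT, so that K82S exceeded all WT libraries. Tff3, a goblet cell peptide, was at 3418, 6337 and 2895 FPKM in KO and at 3420, 7748 and 3987 FPKM in WT. Zg16, a goblet cell lectin, was at 3326, 4538 and 2907 FPKM in KO and at 2453, 3474 and 2314 FPKM in WT. The groups overlapped for both goblet cell genes.

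Gzma, a granzyme of cytotoxic lymphocytes, was at 98.8, 147 and 99.8 FPKM in KO and at 76.2, 46.5 and 63.6 FPKM in WT. Gzmb, a further granzyme, was at 34.3, 39.3 and 35.5 FPKM in KO and at 21.96, 11.7 and 18.2 FPKM in WT. The groups did not overlap, with KO above WT, for 7 of the 8 T cell genes, both granzymes among them, and for 5.79% of placed genes. With all 6 libraries 0 of the 8 passed the limma test, while 7 had an unadjusted p under 0.05 (adjusted p = 0.393 for both granzymes). Without K82S Cd3e, of the T cell receptor complex, rose in KO by limma (log2 fold change 0.69, adjusted p = 0.0367), as did 0.374% of placed genes, and the other 7 did not pass. The sum of 5 plasma cell genes was 145.9, 290.2 and 192.4 FPKM in KO and 162.6, 170.6 and 142.3 FPKM in WT, and the sum of 7 smooth muscle and stromal genes 22.7, 19.8 and 47.0 FPKM in KO and 18.3, 16.6 and 38.2 FPKM in WT, with overlapping groups for both.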
